A study of Mus musculus with 11 samples.

Results

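The genes described here are 7 Toll-like receptor genes of the mouse, Tlr1, Tlr2, Tlr3, Tlr4, Tlr6, Tlr7 and Tlr9, together with Cd180 and Ly86. They are 9 of the 22380 protein-coding gene entries of GENCODE M1, an annotation on the mouse build mm9. They were chosen by name. The data on them are the peaks of the transcription factors IRF4 and PU.1 that lay in one of these genes or within 20 kb of it. Such a gene is called bound below, which states a distance and nothing about whether the peak acts on the gene.

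The peaks come from chromatin immunoprecipitation with sequencing (ChIP-seq), in which an antibody recovers the DNA that a protein sits on and places with much recovered DNA are called peaks. The cells were resting mature B cells enriched from the spleens of B1-8i mice of strain 129, which carry a gene-targeted antibody against the hapten NP. Every culture received NP-Ficoll, CD40L and 3 cytokines, IL-2, IL-4 and also IL-5. Cells were taken on day 3, after differentiation towards plasma cells, or on day 1, after activation and before differentiation, so that the study could set the binding of both factors side by side on both days. There were 3 IRF4 libraries of day 3, 3 IRF4 libraries of day 1, 2 PU.1 libraries of day 3 and 2 PU.1 libraries of day 1. Nothing in the labels makes the replicates separate mice or separate cultures, so p-values here reflect the spread of these libraries alone, and that spread may be technical. No library of unstimulated cells is compared here.

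Toll-like receptors recognise molecules of microbes and, on B cells, add to the signals received through the antigen receptor. TLR2 pairs with TLR1 or TLR6 on the cell surface to bind lipopeptides, TLR4 responds to bacterial lipopolysaccharide, and TLR3, TLR7 and TLR9 recognise double-stranded RNA, single-stranded RNA and unmethylated CpG DNA inside endosomes. CD180 is a related surface protein of B cells that is held in a complex with MD-1, the product of Ly86. PU.1 belongs to the Ets family and acts in B cells and in myeloid cells. IRF4 is needed for plasma cell formation and binds many of its sites next to an Ets factor, such as PU.1, or next to an AP-1 factor.

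The lists held 2784, 1408 and 5595 IRF4 peaks in day 3 replicates 1, 2 and 3, against 825, 9326 and 8929 in day 1 replicates 1, 2 and 3. They held 34410 and 34061 PU.1 peaks in the day 3 libraries and 27321 and 38052 in the day 1 libraries. The lowest fold enrichment over input listed was 15.04 to 16.9 in the IRF4 day 3 libraries and 20.9 to 21.9 in the IRF4 day 1 libraries, so weak places could be listed on day 3 only. Peaks carry region numbers, and 9.64% to 39.2% of the numbers up to the highest were absent from a list, so that a place missing from 1 library may be an absent line; this was not tested. The group list of a factor and day, deposited beside the library lists, holds no line from replicate 3 of IRF4 on either day. All lines of both PU.1 group lists come from replicate 1 and none from replicate 2. Among the regions near the 9 genes, those in a group list were the ones called in 2 or more libraries of that factor and day. There, a line from 1 replicate thus marks a place that another replicate had also called. Of 10 B cell marker genes, 4 were bound by IRF4 in the day 3 group list and 8 in the day 1 group list, and all 10 were bound by PU.1 on both days. Of 10 myeloid marker genes, IRF4 bound 1 on day 3 and 3 on day 1, and PU.1 bound 5 in each group list. Of 10 T cell marker genes, IRF4 bound 1 in each group list and PU.1 bound 8 in each. Of all protein-coding genes, IRF4 bound 8.45% on day 3 and 10% on day 1, and PU.1 bound 54.3% on day 3 and 52.2% on day 1. Binding is not expression, so these counts do not measure the purity of the cells.

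The sequences at the places the results turn on are printed from the mm9 plus strand. The first set shows the start of Tlr9, where PU.1 had its highest value near the 9 genes in every PU.1 library, and an intron of Tlr9. The window just upstream of the start is chr9:106124807-106124928 with an AP-1 site (TGANTCA) in capitals, the site just inside the gene is chr9:106124929-106124956 with a PU.1 site (GAGGAAGT, here on the minus strand) in capitals, and the intron window is chr9:106125491-106125690 with an Ets-IRF composite element (EICE, which is GGAA followed by GAAA with 2 bases of any kind between) in capitals.
Tlr9 upstream window: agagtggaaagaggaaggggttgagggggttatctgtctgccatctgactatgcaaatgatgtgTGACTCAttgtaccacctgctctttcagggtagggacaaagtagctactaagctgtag
Tlr9 start site: tgaaagtgtcACTTCCTCaattctctga
Tlr9 intron window: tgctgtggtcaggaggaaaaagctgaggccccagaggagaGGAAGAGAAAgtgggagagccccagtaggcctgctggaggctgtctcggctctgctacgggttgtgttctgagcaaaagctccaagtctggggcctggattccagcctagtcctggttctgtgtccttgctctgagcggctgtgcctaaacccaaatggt

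The second set shows the other endosomal receptors, which differ in what their IRF4 place holds. The Tlr7 intron window is chrX:163753850-163754049 with an EICE on the minus strand in capitals, and the Tlr3 site is chr8:46495325-46495354 with an interferon-stimulated response element (ISRE, which is GAAA followed by GAAA with 2 bases of any kind between) in capitals.
Tlr7 intron window: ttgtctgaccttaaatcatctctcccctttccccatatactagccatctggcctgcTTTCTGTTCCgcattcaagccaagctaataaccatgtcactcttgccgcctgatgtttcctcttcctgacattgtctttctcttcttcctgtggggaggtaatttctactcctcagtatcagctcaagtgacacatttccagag
Tlr3 site: ctttcagcctGAAAGTGAAActtaagttga

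The third set shows places at surface receptors that both factors or PU.1 alone occupied in all or most libraries. The Tlr4 start site is chr4:66488717-66488744 with a PU.1 site on the minus strand, and the Tlr4 intron window is chr4:66504393-66504592 with an AP-1 site. The window upstream of Tlr6 is chr5:65352073-65352272 and the window upstream of Cd180 is chr13:103479660-103479859, each with a PU.1 site; all these sites are in capitals.
Tlr4 start site: tggcactctcACTTCCTCtttgaatata
Tlr4 intron window: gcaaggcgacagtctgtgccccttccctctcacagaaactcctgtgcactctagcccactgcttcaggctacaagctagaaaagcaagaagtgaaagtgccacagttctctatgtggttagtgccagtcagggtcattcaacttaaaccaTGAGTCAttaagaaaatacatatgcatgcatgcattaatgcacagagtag
Tlr6 upstream window: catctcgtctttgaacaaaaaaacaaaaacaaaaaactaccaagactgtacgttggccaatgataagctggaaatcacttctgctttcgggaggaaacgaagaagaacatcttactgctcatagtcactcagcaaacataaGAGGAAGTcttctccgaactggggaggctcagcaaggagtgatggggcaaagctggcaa
Cd180 upstream window: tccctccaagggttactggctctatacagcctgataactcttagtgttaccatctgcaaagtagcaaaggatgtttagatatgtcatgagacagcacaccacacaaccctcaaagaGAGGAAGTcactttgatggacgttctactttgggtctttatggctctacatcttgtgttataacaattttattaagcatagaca

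PU.1 was called near every one of the 9 genes in every PU.1 library, as it was near 50.8% of all protein-coding genes, and IRF4 was called near a changing subset of them. Each of the 9 genes also held a single PU.1 region called in all 4 libraries, as did 43.3% of all genes, while 64.8% of all genes held a region called in 2 or more. In the PU.1 group lists all 9 genes were bound on day 3, where 54.3% of all protein-coding genes were, and all 9 on day 1, where 52.2% were. In the IRF4 day 3 group list 4 of the 9 genes were bound, namely Tlr3, Tlr4, Tlr7 and Tlr9, where 8.45% of all genes were. In the IRF4 day 1 group list 5 were bound, namely Tlr2, Tlr3, Tlr4, Tlr9 and Ly86, where 10% of all genes were. Tlr3, Tlr4 and Tlr9 were bound in both IRF4 group lists, as were 5.42% of all genes. The median length of the 9 genes was 14.9 kb and that of all genes 15.4 kb.

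**Figure D1:**
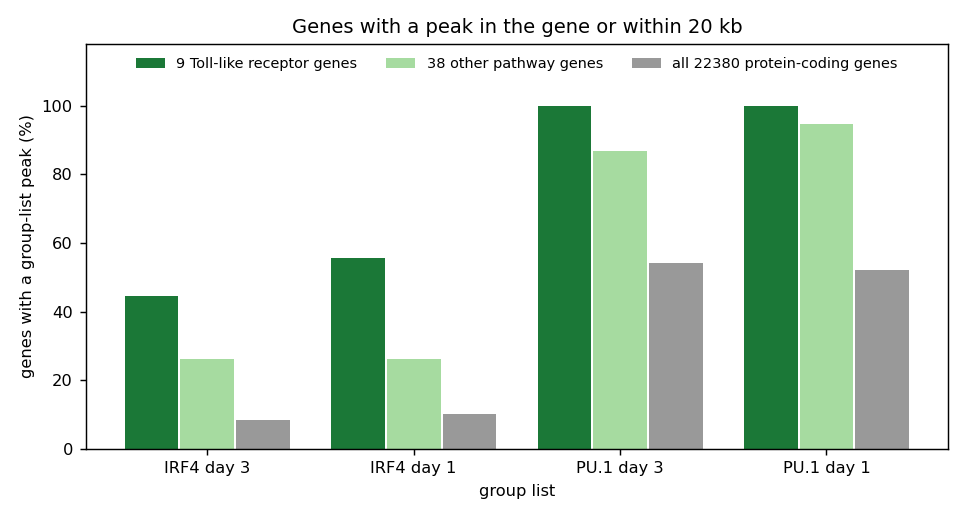
Percent of genes with a peak in the gene or within 20 kb (vertical axis) in each of the 4 group lists, day 3 left of day 1 for each factor, with bars for the 9 Toll-like receptor genes, 38 other genes of the pathway and all protein-coding genes. The bars of the 9 genes stand at 44.4% and 55.6% for IRF4 and at 100% for PU.1, above the gray bars of all genes at 8.45%, 10%, 54.3% and 52.2%.

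Single libraries of IRF4 varied widely in how many of the 9 genes they bound. IRF4 was called near 4, 3 and 6 of the 9 genes in day 3 replicates 1, 2 and 3, where 11.6%, 6.43% and 21.2% of all genes were bound. It was called near 2, 6 and 7 of them in day 1 replicates 1, 2 and 3, where 3.65%, 31.1% and 30.2% of all genes were bound. The number of bound genes moved with the length of the list, whose part was not tested, and the days overlapped. PU.1 was called near all 9 genes in each library, where 65.8% and 63.3% of all genes were bound on day 3 and 56.9% and 65.8% on day 1. IRF4 regions called in 2 or more libraries lay near 6 of the 9 genes and near 15.9% of all genes. Tlr4 and Tlr9 were bound in all 6 IRF4 libraries, as were 2.02% of all genes, and each of them held a single region called in all 6, as did 1.35% of all genes. Tlr7 was bound in 5 IRF4 libraries, Tlr3 in 4, Tlr2, Cd180 and Ly86 in 2 each, Tlr6 in 1 and Tlr1 in none. IRF4 was called in at least 1 library near 8 of the 9 genes and near 49.7% of all genes, so a call in a single library says little about a gene.

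**Figure D2:**
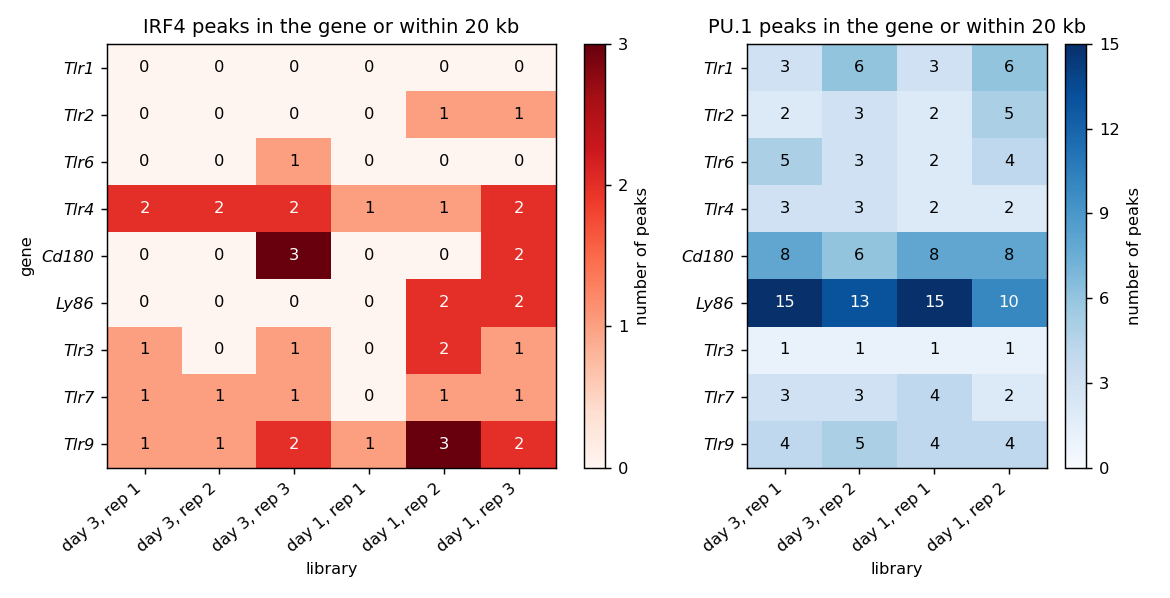
Number of peaks in each gene or within 20 kb of it (colour and printed number), with 1 row for each of the 9 genes and 1 column for each library, day 3 left of day 1 for each factor. PU.1 peaks were most numerous at Ly86, with 10 to 15 in each library, and IRF4 peaks were found in all 6 libraries at Tlr4 and Tlr9 alone. The numbers are not adjusted for gene length.

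Tlr9, the receptor for CpG DNA, lies on chromosome 9 at 106124929-106129207 on the plus strand. Its start was called in all 10 libraries, with IRF4 peaks centred 23 bp upstream of it, in chr9:106124636-106125193. The IRF4 fold enrichment there was 45.7, 36.5 and 54.0 in day 3 replicates 1, 2 and 3, and 29.2, 49.0 and 47.0 in day 1 replicates 1, 2 and 3. The days overlapped, and day 1 replicate 1, the shortest list, was lowest. PU.1 fold enrichment at the same position was 856 and 799 in the day 3 libraries and 528 and 813 in the day 1 libraries. In each PU.1 library this was the highest value of all regions near the 9 genes, and it ranked in the top 0.250% to 0.556% of that library's peaks. The median positions of the IRF4 and PU.1 regions coincided to the base. The positions of single libraries spread over 71 bp for IRF4 and 10 bp for PU.1, so this match is one of medians only. The region also lies within 20 kb of Twf2 and Alas1, so the distance rule assigns it to those genes as well.

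Tlr9 held 2 weaker IRF4 regions. The one in its intron, 661 bp inside the gene, was called with a fold enrichment of 19.5 in day 3 replicate 3 and 26.1 in day 1 replicate 2 and in no other IRF4 library. PU.1 was called there at 103 and 50.6 in the day 3 libraries and at 27.1 in day 1 replicate 1. Day 1 replicate 2 had no PU.1 position of its own there, but its peak at the Tlr9 start was 1474 bp wide and spanned this place. The other lay 7.86 kb downstream of the start, beyond the end of the gene, and was called in no day 3 library and at 37.8 and 35.9 in day 1 replicates 2 and 3. PU.1 was called there in all 4 libraries, at 54.9 and 83.3 on day 3 and 29.5 and 84.5 on day 1. Its median position lay 204 bp nearer the gene start than the median IRF4 position. Only 1 IRF4 library, day 1 replicate 3, had a position less than 200 bp from those of PU.1. At both places IRF4 was absent from most lists while PU.1 had a position of its own in 3 or 4 of its 4.

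Tlr7, the receptor for single-stranded RNA, lies on chromosome X at 163742861-163768490 on the minus strand. Its main IRF4 region lay in an intron 14.5 kb from the start, at chrX:163753739-163754150. The fold enrichment was 17.1, 19.4 and 29.9 in day 3 replicates 1, 2 and 3, and 23.2 in day 1 replicate 2; it was not called in day 1 replicates 1 and 3. The values of day 3 replicates 1 and 2 were below the lowest value listed for any day 1 library, so calls of that size could not appear on day 1. PU.1 was called at this place at 114 in day 3 replicate 2 and at 37.8 and 93.4 in the day 1 libraries, and not in day 3 replicate 1. The PU.1 region called in all 4 libraries lay 1.79 kb inside the gene, at 31.8 and 28.8 on day 3 and 39.7 and 26.01 on day 1. IRF4 was also called 9.87 kb upstream of Tlr7 in day 1 replicate 3 alone, at 30.3, a place also within 20 kb of Prps2. Tlr7 counted as bound in that library through this call only.

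Tlr3, the receptor for double-stranded RNA, lies on chromosome 8 at 46481019-46495962 on the minus strand. It held an IRF4 region 693 bp inside the gene, at chr8:46495020-46495718, where the annotation gives a 5′ untranslated region. The fold enrichment was 17.0 and 16.1 in day 3 replicates 1 and 3, and 34.3 and 51.5 in day 1 replicates 2 and 3. Replicate 2 of day 3 and replicate 1 of day 1 had no call there, and the 2 day 3 values were again below the lowest value listed on day 1. PU.1 was not called at this place in any of its 4 libraries. PU.1 was called instead 4.52 kb upstream of the gene in all 4 libraries, at 127 and 73.6 on day 3 and 87.8 and 100.04 on day 1, where IRF4 was called in day 1 replicate 2 alone, at 27.4.

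Tlr4, the receptor for lipopolysaccharide, lies on chromosome 4 at 66488618-66591318 on the plus strand and was bound at its start and in an intron. The intron region lay 15.9 kb inside the gene, at chr4:66504286-66504647. It is an intron of the 103 kb gene entry, beyond a place 14.2 kb inside that is annotated as a 3′ untranslated region of Tlr4. Its IRF4 fold enrichment was 45.7, 28.8 and 47.3 in day 3 replicates 1, 2 and 3, and 45.6, 102 and 66.3 in day 1 replicates 1, 2 and 3. It was called in all 6 libraries, the days overlapped, and the value in day 1 replicate 2 ranked in the top 1.18% of that list. PU.1 reached 486 and 461 in the day 3 libraries and 367 and 496 in the day 1 libraries, with the median PU.1 position 10 bp from the median IRF4 position.

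The region at the Tlr4 start lay 79 bp inside the gene, at chr4:66488387-66488906, in the 5′ untranslated region. IRF4 was called there at 56.7, 47.1 and 46.2 in day 3 replicates 1, 2 and 3, and at 61.8 in day 1 replicate 3, with no call in day 1 replicates 1 and 2. PU.1 was called at 845 and 638 in the day 3 libraries and at 308 and 505 in the day 1 libraries. All 3 IRF4 libraries of day 3 had the call and 1 of 3 on day 1 did, which the exact test on calls below could not separate. In IRF4 day 3 replicates 1 and 2 this start region had the highest fold enrichment near the 9 genes, and in the 3 day 1 libraries the Tlr4 intron region had it. In day 3 replicate 3 the Tlr9 start was highest.

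Tlr2, which forms the lipopeptide receptors with TLR1 and TLR6, lies on chromosome 3 at 83640195-83645689 on the minus strand. IRF4 was called at its start in no day 3 library and at 33.9 and 52.9 in day 1 replicates 2 and 3. PU.1 was called at the start in all 4 libraries, at 40.7 and 26.3 on day 3 and 30.3 and 41.5 on day 1, far below its values at the Tlr9 and Tlr4 starts in the same lists. The IRF4 day 1 calls came from the longest lists of that factor.

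Tlr1 and Tlr6 are neighbouring, related genes on the minus strand of chromosome 5, at 65316050-65324000 and 65344345-65351287. Tlr1 had no IRF4 peak in any of the 6 libraries. Its PU.1 region called in all 4 libraries lay 13.7 kb past its start, at 52.3 and 29.9 on day 3 and 28.5 and 18.5 on day 1. Tlr6 had a strong PU.1 region 885 bp upstream of its start, at 573 and 574 in the day 3 libraries and 453 and 656 in the day 1 libraries, also within 20 kb of Fam114a1. It was second to the Tlr9 start among the regions near the 9 genes in both PU.1 day 1 libraries. IRF4 was called there in day 3 replicate 3 alone, at 22.8. A pair of PU.1 regions lay within 20 kb of both genes and was counted for each.

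Cd180 lies on chromosome 13 at 103483638-103529709 on the plus strand. Its strongest PU.1 region called in all 4 libraries lay 3.88 kb upstream, at 340 and 203 in the day 3 libraries and 150 and 87.3 in the day 1 libraries. Both day 3 values were above both day 1 values, but each value comes from a list of its own scale and no test of the difference was made. A weaker PU.1 region 2.16 kb inside the gene had 26.6 and 46.2 on day 3 and 24.2 and 62.2 on day 1, so the same order did not hold there. IRF4 was called at 5 places near Cd180, each in 1 library only: 3 of them in day 3 replicate 3, at 16.7 to 26.4, and 2 in day 1 replicate 3, at 24.9 and 28.5.

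Ly86, which encodes MD-1, the partner of CD180, lies on the same chromosome at 37437214-37510905 on the plus strand. It had the most PU.1 peaks of the 9 genes, with 15 and 13 in the day 3 libraries and 15 and 10 in the day 1 libraries. These counts are not adjusted for length. Ly86 spans 73.7 kb, and of the 9 genes only Tlr4, at 103 kb, is longer. At its start PU.1 was called 20 bp upstream, at 155 and 159 on day 3 and 97.1 and 188 on day 1. A further 5 regions near it were called in all 4 PU.1 libraries, with fold enrichments of 25.5 to 173. IRF4 was called in an intron 58.5 kb from the start in no day 3 library and at 26.3 and 29.3 in day 1 replicates 2 and 3, where PU.1 had 27.7 and 19.1 on day 3 and 20.2 in day 1 replicate 1. IRF4 at the start was called in day 1 replicate 3 alone, at 27.8.

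**Figure D3:**
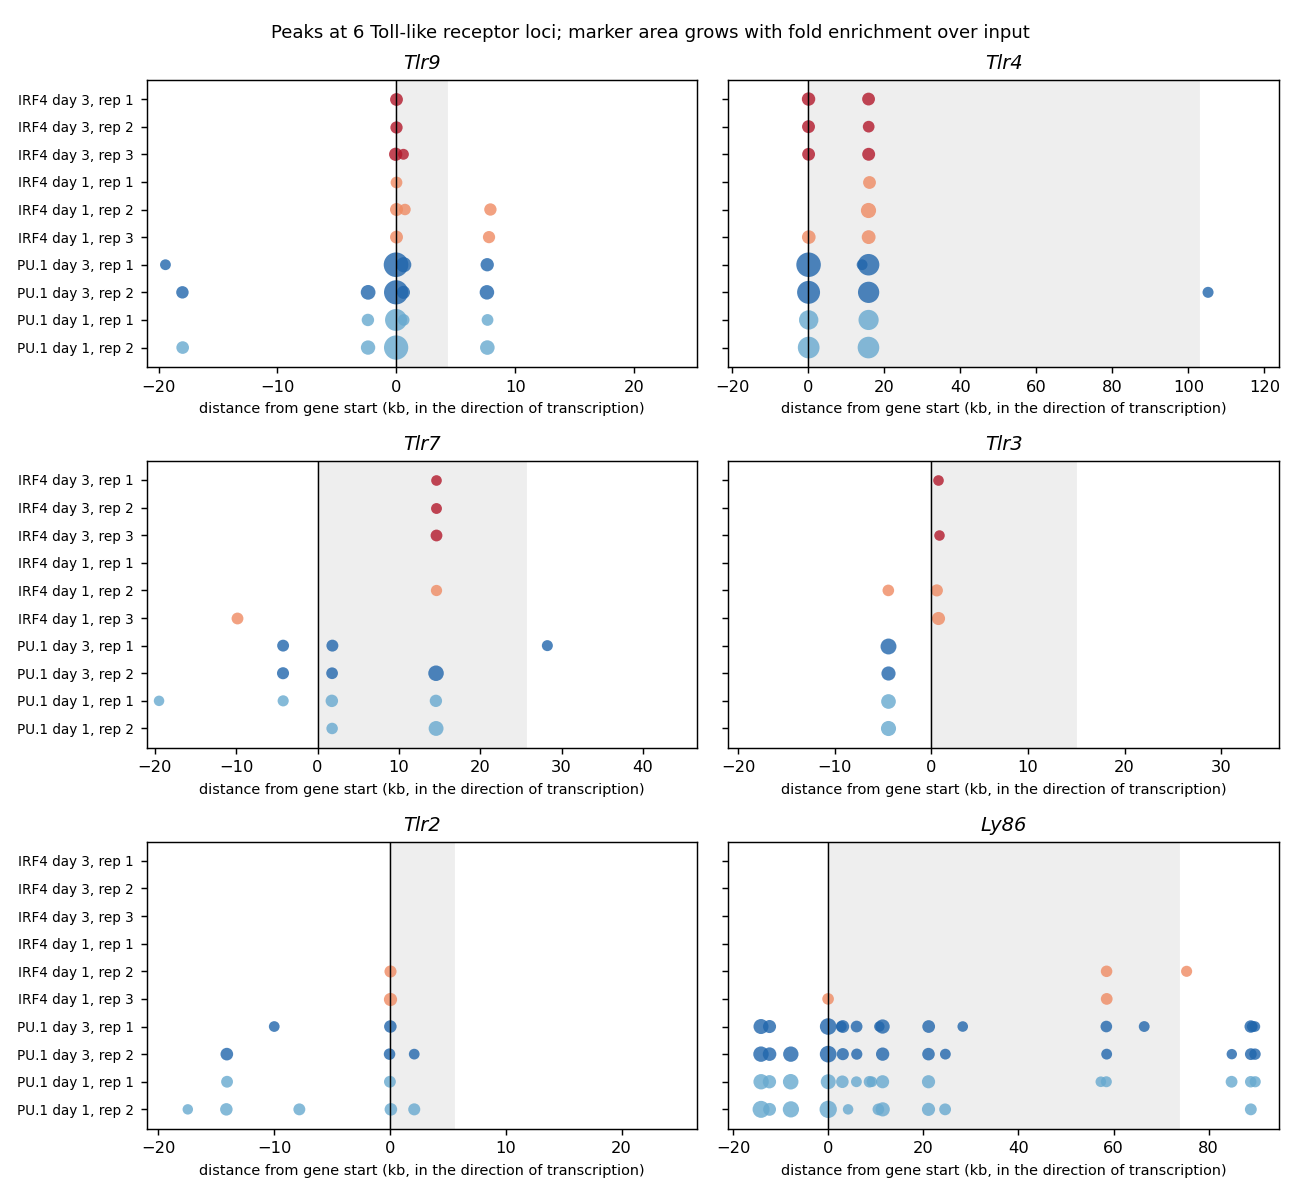
Peaks at 6 of the genes by distance from the gene start (horizontal axis, kb, in the direction of transcription), with 1 row for each library, IRF4 above PU.1 and day 3 above day 1. The gray band is the gene and the area of a marker grows with fold enrichment; at Tlr9 and Tlr4 the IRF4 markers stand over the largest PU.1 markers, and at Tlr3 the IRF4 and PU.1 markers are mostly apart.

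In all, 19 IRF4 regions lay near the 9 genes, of 20058 in the genome, and 69 PU.1 regions, of 57563. Of the IRF4 regions 10 came from a single library (52.6%, against 79.1% of all IRF4 regions), 4 from 2 libraries, 3 from 4 and 2 from all 6. IRF4 regions called in 2 or more libraries lay within 1 kb of a member's start in 5 of 9 cases, and by annotation 4 lay in an intron, 3 in an untranslated region and 2 between genes. Of the 3272 such regions within 20 kb of any protein-coding gene, 12.3% lay within 1 kb of a transcript start, 60.7% in an intron, 3.97% in an untranslated region and 33.95% between genes. Of the PU.1 regions 17 were called in all 4 libraries, which is 24.6% against 24.7% of all PU.1 regions, and these lay within 1 kb of a start in 5 of 17 cases and between genes in 10. Of the 11741 such PU.1 regions within 20 kb of any protein-coding gene, 21.1% lay within 1 kb of a transcript start and 33.4% between genes. A further 18 PU.1 regions were called in 3 of 4 libraries, some of them with high values elsewhere. The region 86 bp upstream of Cd180 had 100.5 to 170 in 3 libraries and no line in day 3 replicate 1, and the region 7.88 kb upstream of Ly86 had 109 to 140 in 3 libraries and likewise no line in day 3 replicate 1. Whether such a gap is an absent line or no enrichment was not tested.

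Of the 19 IRF4 regions near the 9 genes, 12 (63.2%) had PU.1 in 2 or more PU.1 libraries, as did 30.4% of all IRF4 regions. Of the 10 called in a single IRF4 library, 4 did (40%, against 20.6% of all such regions), and the other 6 were 4 regions near Cd180, 1 near Ly86 and 1 upstream of Tlr7. PU.1 was counted only where positions lay less than 200 bp apart. The Cd180 region 3.64 kb upstream failed this rule but lay within the span of the PU.1 region 3.88 kb upstream, called in all 4 libraries. The Cd180 region 1.43 kb inside the gene likewise lay within the span of a PU.1 region called in 2 libraries. Of the 9 IRF4 regions called in 2 or more libraries, 8 (88.9%) had it, where 2823 of all 4189 such IRF4 regions (67.4%) did. The exception was the Tlr3 region, with no PU.1 call. The 2 regions called in all 6 IRF4 libraries, at the Tlr9 start and in the Tlr4 intron, had PU.1 values of 367 or more in every PU.1 library. The converse did not hold: the Tlr6 upstream region, among the strongest PU.1 places near these genes, had IRF4 in 1 library.

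**Figure D4:**
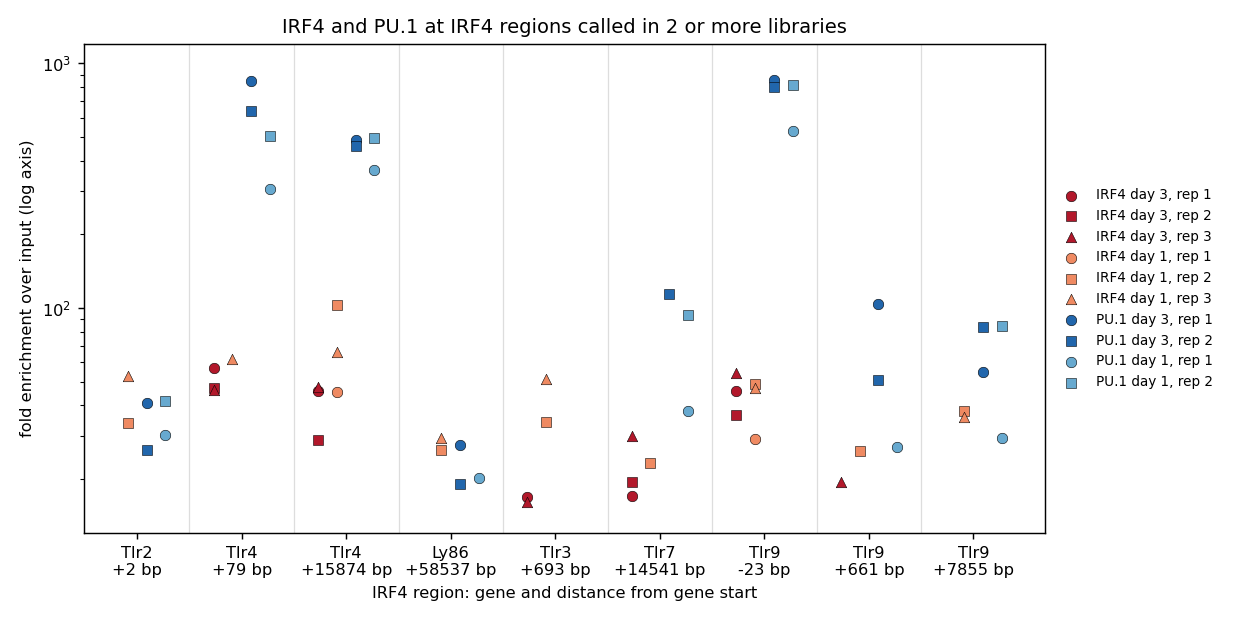
Fold enrichment over input (vertical axis, log scale) at the 9 IRF4 regions called in 2 or more libraries, ordered by gene and distance from its start, with 1 point for each library that called the place; colour gives factor and day, and shape the replicate. PU.1 points at the Tlr9 start and the 2 Tlr4 regions lie between 308 and 856, while the IRF4 points of all 9 regions lie between 16.1 and 102.

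The letters of these places differed from gene to gene. Motifs were searched on both strands of 200 bp around the peak position, and shares are given beside those of all regions of the same kind. Among the 9 IRF4 regions, the EICE was present at the Tlr9 intron and the Tlr7 intron, 2 of 9, against 22.8% of all 4189 regions. The ISRE was present at the Tlr3 region alone, against 10.6% of all, and the AP-1-IRF composite element (AICE, which is GAAA joined to TGANTCA directly or with 4 bases between) at none, against 2.43% of all. The AP-1 site, which reads the same on both strands apart from its middle base and is part of the AICE, was present at 4 of 9, the Tlr9 start, the Tlr4 intron, the Tlr3 region and the Ly86 intron, against 25.9% of all. The PU.1 site was present at the Tlr9 start and the Tlr4 start, against 10.5% of all. The IRF4 regions at the Tlr2 start and downstream of Tlr9 held none of the 5 motifs, which says only that these letters are not in the window. The PU.1 region downstream of Tlr9 held an AP-1 site in its own window.

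Among the 17 PU.1 regions called in all 4 libraries, the PU.1 site was present at 5, those at the Tlr9 start, the Tlr4 start, upstream of Tlr6, upstream of Cd180 and in Ly86, against 26.9% of all 14200 such regions. The AP-1 site was also present at 5, against 8.29% of all. The EICE was present at the Tlr7 region 1.79 kb from the start, against 15.3% of all, and the ISRE at 1 Ly86 region, against 6.01% of all. The Tlr9 start held an AP-1 site 32 bp before the median IRF4 position and a PU.1 site 36 bp after it, as printed above. The IRF4 positions of single libraries spread over 71 bp there, so this spacing does not hold for each library. A match is a description of the letters and not evidence that a factor sits on them.

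Counts per library did not separate the days for either factor. IRF4 peaks near the 9 genes numbered 5, 4 and 10 in the day 3 libraries and 2, 10 and 11 in the day 1 libraries. The means were 6.33 ± 3.21 on day 3 and 7.67 ± 4.93 on day 1 (SD, n = 3 each), a difference of -1.33 that was smaller than the spread (exact permutation test, two-sided, p = 0.9, adjusted p = 1 over 6 differences). Per 1000 peaks of the list the order turned round, with 2.14 ± 0.606 on day 3 and 1.58 ± 0.739 on day 1 (exact permutation test, two-sided, p = 0.4, adjusted p = 1). The number of the 9 genes bound by IRF4 averaged 4.33 ± 1.53 on day 3 and 5 ± 2.65 on day 1 (SD, n = 3 each; exact permutation p = 0.9, adjusted p = 1). With 3 libraries a day the smallest p possible is 0.1, so no difference could have passed 0.05. Without day 1 replicate 3 the differences in IRF4 peaks and in bound genes were each 0.333 in place of -1.33 and -0.667.

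PU.1 peaks near the 9 genes numbered 42 and 41 in the day 3 libraries and 41 and 41 in the day 1 libraries, and all 9 genes were bound in each. The difference in peaks was 0.5 (exact permutation test, two-sided, p = 1, the smallest possible p being 0.333 with n = 2 each). Per 1000 peaks the means were 1.21 ± 0.0119 on day 3 and 1.29 ± 0.299 on day 1 (SD, n = 2 each; exact permutation p = 1), and the day 1 library with fewer peaks in all set the higher value. Without PU.1 day 1 replicate 1 the difference per 1000 peaks was 0.135 in place of -0.0769. The day difference of IRF4 minus that of PU.1 was -1.83 peaks (exact permutation p = 0.75 over 120 arrangements), 0.642 per 1000 peaks (exact permutation p = 0.333) and -0.667 bound genes (exact permutation p = 0.9), so a difference between the factors in how they changed with time was not detected.

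The same held place by place. The regions at the Tlr4 start and in the Tlr7 intron were called in 3 of 3 IRF4 libraries on day 3 and 1 of 3 on day 1 (Fisher's exact test, two-sided, p = 0.4, adjusted p = 0.72 over 9 places). The regions at the Tlr2 start, in the Ly86 intron and downstream of Tlr9 were called in 0 of 3 on day 3 and 2 of 3 on day 1, with the same exact p. The calls missing on day 1 were always missing from replicate 1, the list of 825 peaks. The Tlr4 start was also missing from day 1 replicate 2, a list of 9326 peaks. Likewise the Tlr7 intron was also missing from day 1 replicate 3, a list of 8929 peaks. The day 1 calls at the Tlr2 start, in the Ly86 intron and downstream of Tlr9 came from replicates 2 and 3, the longest IRF4 lists. The part of list length in these patterns was not tested.

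The wider pathway was followed in a list of 38 genes of Toll-like receptor signalling, all of them matched in the annotation. IRF4 bound 10 of them (26.3%) in the day 3 group list, where 8.45% of all genes were bound, and 10 in the day 1 group list, where 10% were. PU.1 bound 33 of them (86.8%) in the day 3 group list and 36 (94.7%) in the day 1 group list, where 54.3% and 52.2% of all genes were bound. Tollip, an adaptor that dampens signalling, was the one gene in neither, with PU.1 called near it in 1 library. The list was written with earlier results of these data known, so the counts are a description.

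By role, IRF4 bound 4 of 8 accessory and trafficking genes on day 3, where 8.45% of all genes were bound, and 3 of 8 on day 1, where 10% were. Among them were Cnpy3 and Hsp90b1, chaperones needed for receptor folding, and Lgmn, a protease of endosomes. Ctsb, another protease, was in the day 3 group list only, at 17.6 and 28.1 in day 3 replicates 1 and 3 and in no day 1 library. The value of 17.6 was below the lowest value listed on day 1, so a call of that size could not appear there. The value of 28.1 was above the lowest value of each day 1 list. The Cnpy3 region, 617 bp inside the gene on chromosome 17, had IRF4 fold enrichments of 103, 83.2 and 96.2 in day 3 replicates 1, 2 and 3, and 65.5 and 125 in day 1 replicates 1 and 3. Its values in the day 3 lists were above those of every region near the 9 receptor genes, and PU.1 was called there in all 4 libraries. The Lgmn region lay 14.0 kb upstream and was called in all 6 libraries, at 22.7 to 31.3 on day 3 and 24.6 to 33.3 on day 1, also within 20 kb of Golga5. The Hsp90b1 region, 1.79 kb upstream, had 24.2 and 35.7 in day 3 replicates 1 and 3 and 37.1 and 38.0 in day 1 replicates 2 and 3.

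Of 6 adaptors, 2 were bound by IRF4 on day 3 and 1 on day 1. Pik3ap1, which links receptors to PI3-kinase, had an intragenic region called in all 6 libraries, at 55.7, 59.4 and 87.2 on day 3 and 57.7, 49.0 and 88.4 on day 1. Ticam1, the adaptor of TLR3, was in the day 3 group list only, with values of 18.8, 19.4 and 20.7 that lay below the lowest value listed on day 1, so a region of that strength could not appear there; at another place within 20 kb of Ticam1 IRF4 was called in 1 day 1 library. Of 11 kinases and ligases, 1 was bound on day 3, Irak2, which is 9.09% and about the 8.45% of all genes, and none on day 1, where 10% of all genes were. Irak2 had 26.2 and 22.5 in day 3 replicates 1 and 2 and 30.4 in day 1 replicate 3.

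Of 4 transcription factors of the pathway, IRF4 bound Irf5 and Nfkb1 on day 3 and these together with Irf7 on day 1, beside 8.45% and 10% of all genes. The Nfkb1 region, in the gene 25.7 kb from its start, was called in all 6 libraries, at 59.9, 32.6 and 57.6 on day 3 and 30.8, 107 and 76.7 on day 1. No PU.1 position lay less than 200 bp from its positions in any of the 4 PU.1 libraries. The Irf5 region, 2.60 kb inside the gene, had 33.9, 26.6 and 32.3 on day 3 and 24.9 and 45.5 in day 1 replicates 1 and 2. Irf7 had 37.8 in day 3 replicate 3 and 34.3 and 39.7 in day 1 replicates 2 and 3. Of 4 inhibitors, Socs1 was bound on both days and Tnfaip3 on day 1, and of 5 other receptors Tlr12 was bound on day 1. Neither the Tnfaip3 nor the Tlr12 region was called on day 3, and in day 1 replicates 2 and 3 the Tnfaip3 region had 36.5 and 24.9 and the Tlr12 region 38.7 and 32.5. At the Socs1 start IRF4 had 20.1, 27.4 and 24.0 on day 3 and 59.2 in day 1 replicate 2.

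**Figure D5:**
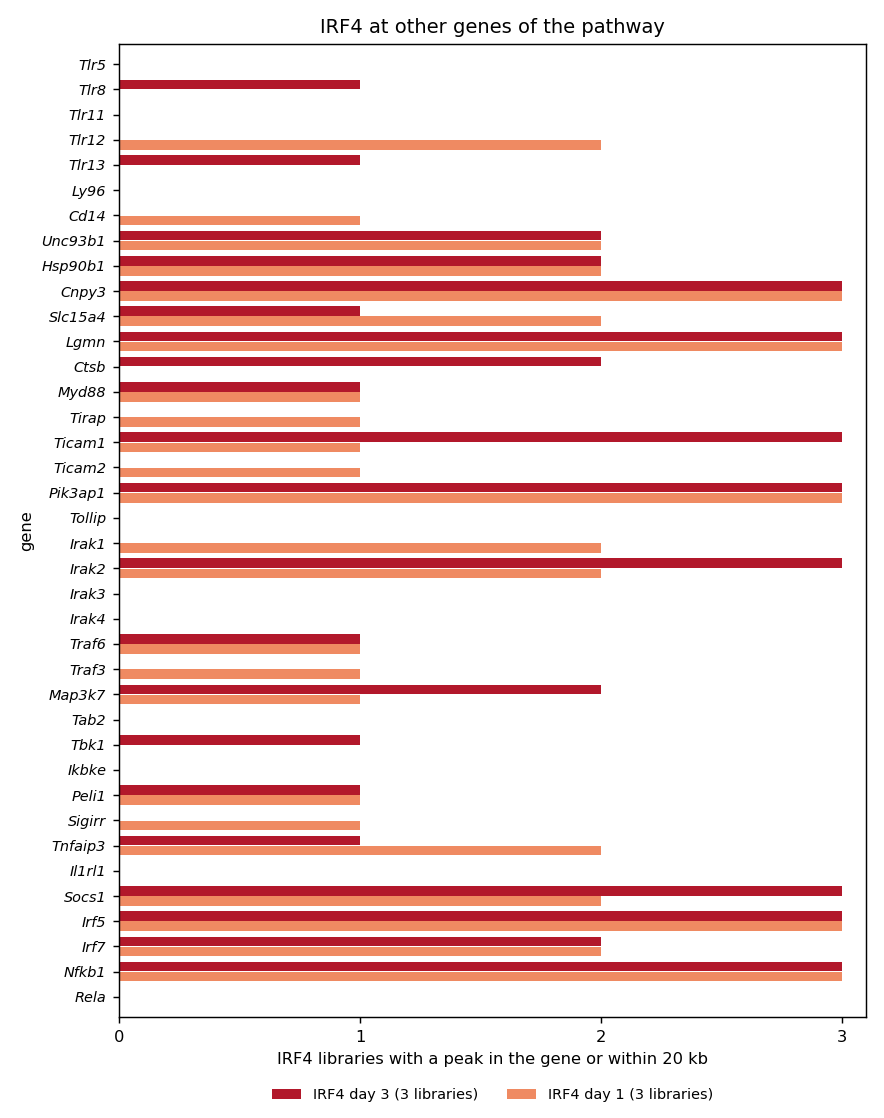
Number of IRF4 libraries with a peak in or within 20 kb of each of the 38 pathway genes (horizontal axis, at most 3 for each day), with the day 3 bar above the day 1 bar and genes in the order of their roles. Cnpy3, Lgmn, Pik3ap1, Irf5 and Nfkb1 have bars of 3 on both days, and 10 genes have no bar.

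Likeness between genes was measured as the number of the 10 libraries in which both had or both lacked a peak. Any peak in the gene or within 20 kb counted, so equal calls need not rest on a recurring region. Tlr4 and Tlr9, bound in all 10, had the same calls as Cnpy3, Lgmn, Pik3ap1, Irf5 and Nfkb1, and as 1.99% of all genes. The calls of Tlr3 matched those of Unc93b1, which carries endosomal receptors to their compartment, Hsp90b1 and Irf7, and those of 1.83% of all genes. The Tlr3 region was called in 4 IRF4 libraries, but no IRF4 region near Unc93b1 was called in more than 1. Unc93b1 was bound in neither IRF4 group list. The calls of Tlr7 matched those of Irak2 and Socs1, and those of 1.85% of all genes. The calls of Cd180 matched those of Myd88, Traf6 and Peli1 (1.89% of all genes), those of Tlr6 the calls of Tlr8 and Tbk1 (2.83%), and those of Tlr2 and Ly86 the calls of Tlr12 and Irak1 (4.15%). Near Myd88, Traf6 and Irak1 no IRF4 region was called in more than 1 library. Tlr1, with PU.1 in all 4 libraries and IRF4 in none, shared its calls with 7 pathway genes and with 14.7% of all genes, so its pattern was the most common of the 9.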

How the data were processed

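ChIP-seq peaks of IRF4 and PU.1 were available for 10 libraries, with 4 group lists. The authors aligned reads to mm9 and used QuEST to score enrichment over input, per the series' design text, and the submitters' processing notes name mm9. The aligner, QuEST version and thresholds were not given in the sources used here. A line of the deposited lists gives a region, a peak position and a maximum enrichment, a linear ratio over input that the authors deposited and that serves here to describe, rank and filter within 1 list. Levels across libraries are set side by side without a common scale. The lists hold no read counts, so depth is unknown and no intervals are given. Every line of a group list also occurs in a library list of that group. The sources do not state if positions start at 0 or 1, so distances may be off by 1 base.

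Positions within 20 kb of a GENCODE M1 gene were assigned to it. Peaks of a factor less than 200 bp apart were merged into regions, and motifs were read from mm9. Replicates carry the numbers of the sample descriptions; those in the titles differ for some libraries. Days were compared with exact permutation and Fisher's exact tests, two-sided, with Benjamini-Hochberg adjustment, in Python 3.11.15 with pandas 2.3.3, SciPy 1.17.1 and statsmodels 0.14.6. The scripts were tested on simulated data. Alternatives changed the window, the merging distance, the peaks used and the libraries. The input library is not analysed here. The members and gene lists were chosen with earlier results of these data known. All members are named with every IRF4 region called in 2 or more libraries and the PU.1 regions called in all 4. Pathway genes are named where an IRF4 group list holds a peak, where no PU.1 group list does, or where their calls equal those of a member. Single-library regions and PU.1 regions missing from 1 library, the values at pathway regions, and the shares of all regions by location, were chosen after their values were seen.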

Additional observations from a re-analysis of the deposited data

How the results depend on the processing

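Of the values from alternatives that kept all libraries, 3 changed sign and 6 counts moved by over 1.5 times. With 3 or 2 libraries a day no day difference could pass the threshold, so its p-values say nothing about stability. With equal numbers of top peaks the IRF4 difference in peaks was 0.667 and that of PU.1 was -3.5, and the IRF4 difference in bound genes was 0. With the stronger 50% of each list the PU.1 difference in peaks was -2 and the IRF4 difference per 1000 peaks was 0.0254 in place of 0.565, while at 50 kb the last was 1.19. Leaving out 1 library gave -4.17 to 0.333 IRF4 peaks, 0.215 to 0.989 per 1000 peaks and -2.17 to 0.333 bound genes, and 0 to 1 PU.1 peaks and -0.289 to 0.135 per 1000. With the stronger 50% of each list, the IRF4 day 3 group list bound 2 of the 9 genes and 5 pathway genes, 11 PU.1 regions were called in every library, and 5 IRF4 regions had PU.1. At 50 kb these last 2 counts were 32 and 13. Without 1 library, 19 to 24 PU.1 regions were called in every remaining library, and 4 to 8 IRF4 regions had PU.1, with 4 of 5 without IRF4 day 1 replicate 2 and 5 of 6 without replicate 3. Group lists rebuilt from regions in 2 or more libraries, an alternative chosen after seeing the data, bound 2 to 5 genes on day 1 and 3 to 4 on day 3 when 1 library was left out. The 2 regions in all IRF4 libraries stayed 2. The causes were not tested.

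The labels do not say that replicate numbers pair the libraries, and the correlations here cannot decide it, since the lists differ widely in length. Deviations of same-numbered IRF4 libraries correlated at -0.268, 0.0768 and -0.103 over 20058 regions and those of PU.1 at -0.00274. With 2 PU.1 libraries a day, differently numbered pairs can differ from same-numbered ones in sign alone, at 0.00274. The highest value was 0.437, for IRF4 day 3 replicate 3 with day 1 replicate 1. Numbers in the sample titles differ from those in the descriptions for some libraries, and the check and the block rest on the descriptions. With the replicate number as a block, the IRF4 differences of -1.33 peaks, 0.565 per 1000 and -0.667 genes each had an exact permutation p of 0.75, and the PU.1 differences of 0.5, -0.0769 and 0 each had p = 1. The lists hold no counts, so depth cannot be set against any missing call.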
